A study of Mus musculus with 8 samples.

Results

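The proteasome genes were described across 8 arrays of cultured mouse primary myoblasts. The genes were taken from the probe annotation by their symbols, which had to begin with Psm, a letter from a to g and a number, and a gene with several probe sets was represented by the brightest one. The pattern matched 50 of the 19938 genes measured. Of these, 48 encode proteasome subunits, activators, an inhibitor or assembly chaperones, and the counts below are over these 48. The other matches, Psmc3ip, a meiotic recombination factor, and Psme3ip1, an interaction partner of Psme3, are no parts of the proteasome and were counted apart, with mean levels of 5.49 and 6.26.

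The arrays were Affymetrix MoGene 1.0 ST arrays, 4 of them labelled Runx1f/f and 4 labelled WT, numbered 1 to 4 within each label and called biological replicates. Per the labels, satellite cells came from the gastrocnemius muscles of C57bl/6 mice aged 2 to 3 weeks that were either Runx1f/f or WT, and were grown on Matrigel in proliferation medium. The labels also call the Runx1f/f cells KO and name no Cre driver, and they do not say which animals or cultures gave each array. Values are log2 intensities, so that a difference of 1 is a doubling.

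The proteasome degrades proteins tagged with ubiquitin. Its core particle is a stack of rings, with outer rings of alpha subunits that gate the entrance and inner rings of beta subunits, among which Psmb5, Psmb6 and Psmb7 carry the proteolytic sites. Regulatory particles cap the core: their ATPases (Psmc genes) unfold substrates, and their other subunits (most Psmd genes) recognise ubiquitin and remove it. In cells exposed to interferon gamma the inducible subunits Psmb8, Psmb9 and Psmb10 replace the catalytic ones and form the immunoproteasome, whose peptides feed antigen presentation. In muscle the proteasome is known for the breakdown of contractile protein during atrophy.

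The deposited values limit what can be compared. In all 35399 rows of the table, the mean of the 4 WT columns, that of Runx1f/f 1 and 2, and that of Runx1f/f 3 and 4 were equal within 7.5e-05, so differences between the labels are fixed at 0 and Runx1f/f 1 and 2, and likewise 3 and 4, are mirror images around their mean. Runx1, the targeted gene, read 9.35, 9.98, 9.89 and 9.44 in Runx1f/f 1 to 4 and 9.15, 9.99, 10.27 and 9.25 in WT 1 to 4. It did not separate the labels (exact two-sided permutation test over 70 assignments, p = 1). The equal means fixed that outcome in advance, so the test checks neither the labels nor the deletion. Apart from this, a probe set outside the deleted part of Runx1 would check nothing. The match of columns to samples is itself in doubt. The labels give each sample a source number, and the columns carry sample headings that do not follow these numbers. If the columns stood in the order of the source numbers instead, 4 of the 8 would change label, each of the 3 sets of equal mean would hold both labels, and all 4 columns called arrays 2 and 3 here would be Runx1f/f samples and all 4 called arrays 1 and 4 would be WT samples. Which order holds was not settled by the files used here. Every array name, and every statement on the labels, is therefore given as the columns are headed. Runx1 read 9.89 to 10.27 in arrays 2 and 3 and 9.15 to 9.44 in arrays 1 and 4.

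All 7 myoblast markers lay above the array medians of 4.39 to 4.41, whereas 4 of 5 fibroblast, 6 of 7 leukocyte, 4 of 4 endothelial and 2 of 4 smooth muscle and pericyte markers lay at or below them. The other smooth muscle and pericyte markers were bright, with mean levels of 11.70 for Acta2 and 8.51 for Rgs5. The fibroblast marker Col1a1 and the leukocyte marker Cd68 lay just above the medians, at 4.62 and 4.60. In these bulk cultures, fewer cells of a type and less RNA per cell cannot be told apart.

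With the columns as headed, no proteasome gene differed between the labels, as the equal means dictate. In limma over all 19938 genes, 0 of the 48 proteasome genes were higher and 0 lower in Runx1f/f arrays at an adjusted p under 0.05, and 0 of all genes (0%) were called. At an unadjusted p under 0.05 the counts were also 0 of 48 and 0 of 19938. The largest absolute difference among the 48 was 5e-05, against a median SD of 0.051 over the 4 Runx1f/f arrays and of 0.068 over the 4 WT arrays. Psmb5 was at 9.17 ± 0.061 in Runx1f/f and 9.17 ± 0.12 in WT arrays, and Psmb8 at 3.77 ± 0.088 and 3.77 ± 0.071 (SD, n = 4 each). The mirror images mean that the 4 Runx1f/f values do not vary independently, so the SDs of the labels are not directly comparable. As headed, these values carry no measure of an effect of Runx1 on the proteasome.

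Most of these genes varied little between arrays. The SDs over the 8 arrays hold no difference between the 3 sets of equal mean. The median SD of the 48 genes over the 8 arrays was 0.073, beside 0.084 over all genes and 0.12 over the 8949 genes with a mean level of at least 5. Among the brighter genes the gap was small: 31 proteasome genes with a mean level of at least 9 had a median SD of 0.073, beside 0.083 over the 1577 genes of that level. The steadiest was Psmd2, which encodes a large scaffold subunit of the regulatory particle. It read 11.05, 11.10, 11.07 and 11.07 in Runx1f/f 1 to 4 and 11.06, 11.09, 11.08 and 11.06 in WT 1 to 4, an SD of 0.016. The widest spread, an SD of 0.17, was in Psmc3, an ATPase of the same particle, followed by the inducible subunit Psmb10 with 0.15.

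**Figure D1:**
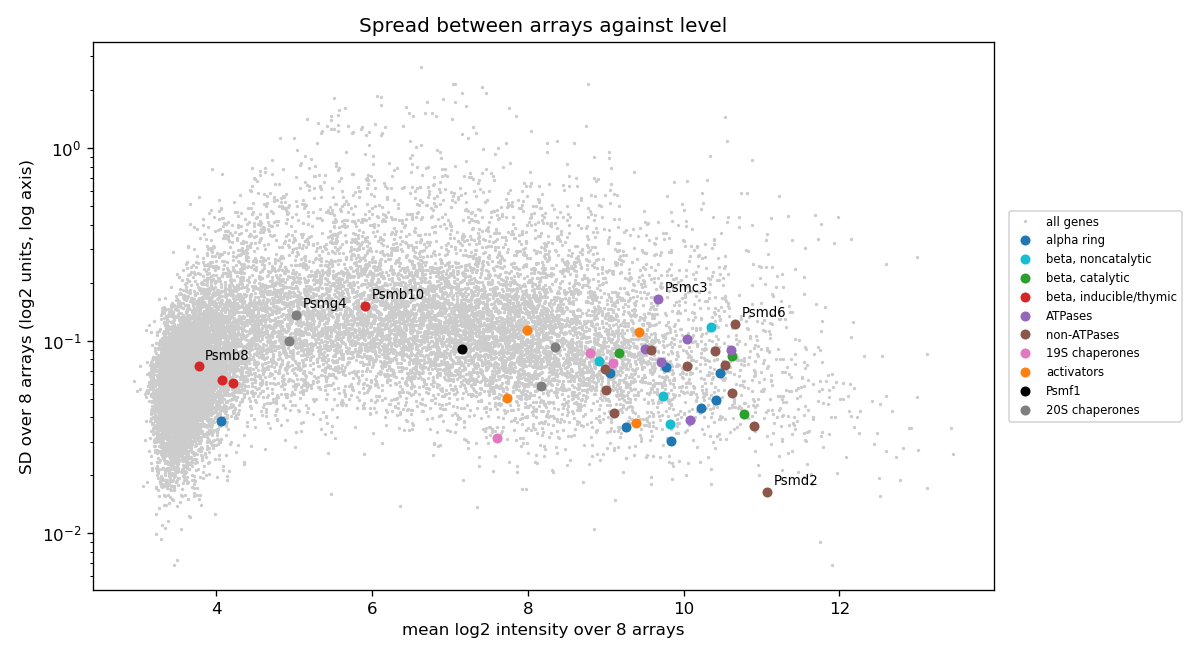
The SD over the 8 arrays (vertical log axis, log2 units) is plotted against the mean log2 intensity (horizontal axis) for all 19938 genes in grey and for the 48 proteasome genes, coloured by class. Psmd2 lies at the bottom with 0.016, Psmc3 and Psmb10 lie highest among the proteasome genes with 0.17 and 0.15, and the inducible and thymic beta subunits have mean levels of 3.77 to 5.92 on their own probe sets.

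The arrays were then set side by side by number, arrays 2 and 3 of both labels against arrays 1 and 4. As headed, this division crosses the labels, whereas in the order of the source numbers it would be the division between the labels. It was found in earlier results of these data and is no group of the design, so its values are given as a description without a test. For 9 of the 48 proteasome genes (18.8%), all 4 arrays numbered 2 and 3 lay above all 4 arrays numbered 1 and 4, beside 9.87% of all genes. For 2 of the 48, all 4 lay below, beside 10.5% of all genes. With a mean level of at least 5, the counts were 9 above and 1 below of 43, beside 14.6% and 16.9% of all genes of that level. With a mean level of at least 9, the count above was 7 of 31 proteasome genes (22.6%) beside 18.2% of all genes of that level, which is close to it, and the count below was 0 of 31 beside 17.4%. The median difference, arrays 2 and 3 minus arrays 1 and 4, was 0.038 over the 48 genes and -0.0064 over all genes. It was positive in 36 of the 48, or 75.0%, beside 47.2% of all genes. After each array was centred on its median these shares were 27 of 48, or 56.3%, beside 36.0%, and the median over the 48 was 0.014 beside -0.031 over all genes.

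The differences were small. An absolute difference over 0.25 was found in 1 of the 48 genes (2.08%), beside 12.3% of all genes and 22.0% of those with a level of at least 5, and none reached 0.5. The equal means leave 3 differences that do not constrain one another, namely WT 2 and 3 minus WT 1 and 4, Runx1f/f 2 minus 1, and Runx1f/f 3 minus 4. All 3 were positive in 13 of the 48 genes, beside 16.8% of all genes, and all 3 negative in 2 of the 48, beside 19.6%. Their medians over the 48 genes were 0.052 in WT, 0.032 in Runx1f/f 2 minus 1 and 0.020 in Runx1f/f 3 minus 4. In the 4 WT arrays alone, arrays 2 and 3 both lay above arrays 1 and 4 in 23 of 48 genes, beside 24.5% of all genes, and both below in 6 of 48, beside 23.3%. In the 4 Runx1f/f arrays alone they lay above in 16 of 48, beside 25% of all genes, and below in 9 of 48, beside 33.3%.

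Of the 7 myoblast markers, 3 lay above (Cdh15, Des and Myog) and 2 below (Myf5 and Myod1) without overlap, beside 14.6% and 16.9% of genes with a level of at least 5. Pax7 and Itga7 overlapped, with differences of 0.080 and -0.11. Myog, which drives terminal differentiation, read 11.94 and 11.48 in Runx1f/f 2 and 3 and 11.70 and 11.76 in WT 2 and 3, against 10.74 and 11.20 in Runx1f/f 1 and 4 and 11.05 and 10.84 in WT 1 and 4. Myf5, a marker of undifferentiated myoblasts, read 7.54 to 7.90 in arrays 2 and 3 and 8.31 to 8.71 in arrays 1 and 4. Of the 7 leukocyte markers, 1 (Itgam) lay above and 0 below without overlap, beside 9.87% and 10.5% of all genes. Itgam read 3.50 to 3.63 in arrays 2 and 3 and 3.28 to 3.41 in arrays 1 and 4, all below the array medians of 4.39 to 4.41. The summed log2 level of the 7 leukocyte markers was 25.07 to 25.42 in arrays 2 and 3 and 24.72 to 24.99 in arrays 1 and 4. The markers did not share a direction. Ptprc and the complement genes C1qa and C1qb, at mean levels of 3.28 to 3.60, had negative differences of -0.063, -0.039 and -0.021. Itgam, Cd68, Cd3e and Cd79a had positive differences of 0.23, 0.13, 0.043 and 0.043. The summed log2 level of the 4 endothelial markers stood apart the other way, at 13.90 to 14.02 in arrays 2 and 3 and 14.03 to 14.16 in arrays 1 and 4. Of these 4, 1 (Kdr) lay above and 1 (Pecam1) below without overlap, beside 9.87% and 10.5% of all genes. All 4 endothelial markers read below the array medians. The summed levels of the fibroblast markers and of the smooth muscle and pericyte markers overlapped. The part of these markers in the proteasome values was not tested.

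**Figure D2:**
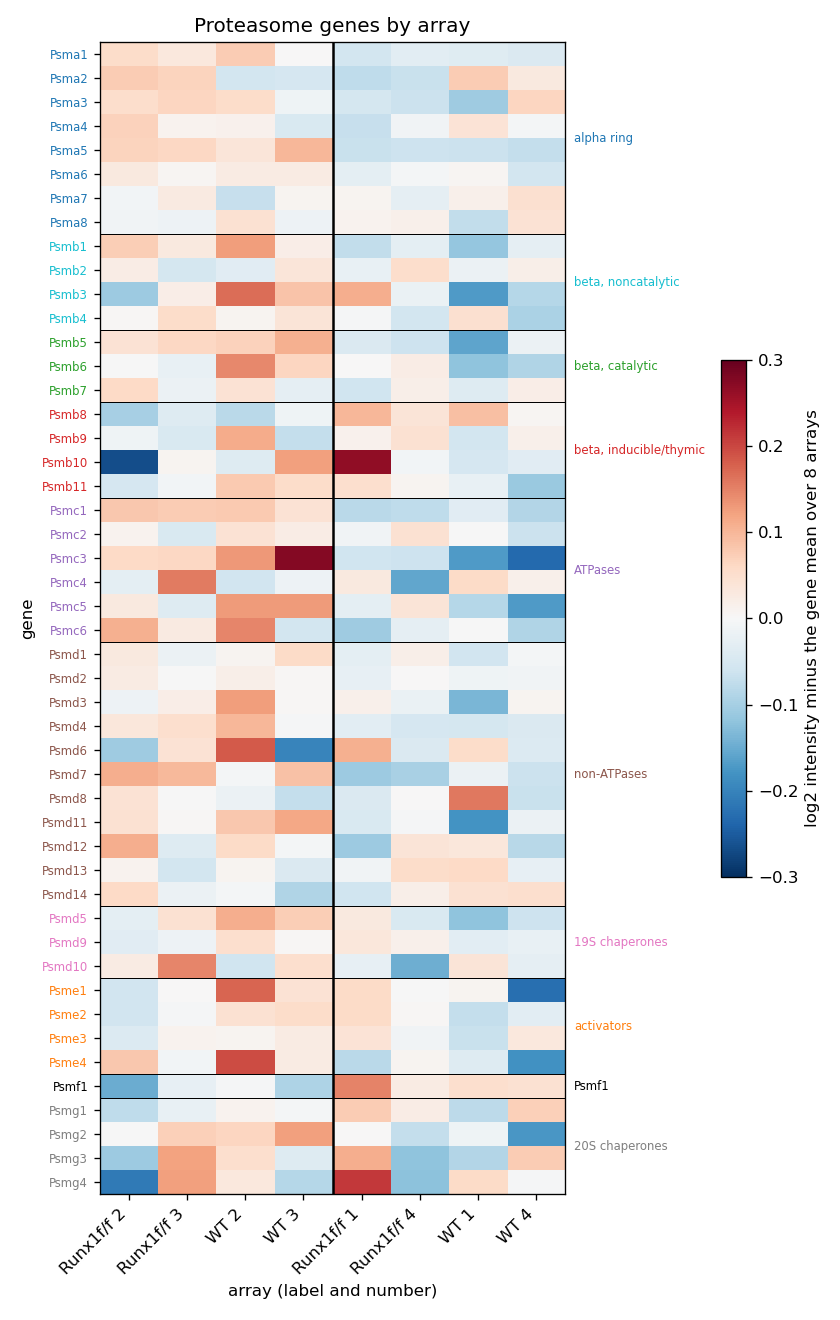
Each cell is the log2 intensity of 1 proteasome gene (rows, grouped by class) on 1 array (columns) minus the mean of the gene over the 8 arrays, from blue (lower) to red (higher). Arrays numbered 2 and 3 stand left of the line and arrays 1 and 4 right of it, and most cells are pale, apart from Psmc3, Psmb10, Psmg4 and a few others.

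Among the alpha subunits, 7 of 8 had a positive difference, beside 47.2% of all genes and 794 of the 1577 with a level of at least 9. In 2 of the 8 (25.0%) arrays 2 and 3 lay above without overlap. This stands beside 9.87% of all genes and 18.2% of those with a level of at least 9, which all alpha subunits but Psma8 had. After centring, the differences of Psma2, Psma4 and Psma8 were negative, at -0.006, -0.0007 and -0.022. Psma5 had the largest difference of the class, 0.13. It read 9.84 and 9.84 in Runx1f/f 2 and 3 and 9.81 and 9.87 in WT 2 and 3, against 9.71 and 9.71 in Runx1f/f 1 and 4 and 9.71 and 9.70 in WT 1 and 4. The arrays thus fell into 2 narrow bands, but on the dimmer probe set of Psma5 they overlapped, with a difference of 0.086. Psma1 read 10.42 to 10.50 in arrays 2 and 3 and 10.37 to 10.39 in arrays 1 and 4. Psma8, the testis form of an alpha subunit, read 3.99 to 4.11 on all arrays, below the array medians.

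The noncatalytic beta subunits Psmb1, Psmb2, Psmb3 and Psmb4 had mean levels of 8.92 to 10.35. In Psmb1 the arrays did not overlap: it read 8.99 and 8.95 in Runx1f/f 2 and 3 and 9.04 and 8.94 in WT 2 and 3, against 8.85 and 8.89 in Runx1f/f 1 and 4 and 8.80 and 8.89 in WT 1 and 4, a difference of 0.12. In Psmb3 they overlapped: Runx1f/f 2 minus 1 gave -0.22, Runx1f/f 3 minus 4 gave 0.041, and WT 2 and 3 minus WT 1 and 4 gave 0.25.

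The promoters of a catalytic subunit and of its inducible counterpart are shown here because their arrays stood apart in opposite directions. Psmb5 carries the chymotrypsin-like site of the constitutive proteasome, and Psmb8 takes its place in the immunoproteasome. The sequences are 250 bases before to 50 after the start of each gene in RefSeq (GRCm38.p6), on chr14:54617946-54618245 (minus strand) for Psmb5 and on chr17:34197945-34198244 (plus strand) for Psmb8, written 5′ to 3′ along the gene. Capitals mark matches to motifs counted further on, in Psmb5 the Runx core TGTGGT and the antioxidant response element core TGACNNNGC, and in Psmb8 the gamma-activated site core TTCNNNGAA.
Psmb5: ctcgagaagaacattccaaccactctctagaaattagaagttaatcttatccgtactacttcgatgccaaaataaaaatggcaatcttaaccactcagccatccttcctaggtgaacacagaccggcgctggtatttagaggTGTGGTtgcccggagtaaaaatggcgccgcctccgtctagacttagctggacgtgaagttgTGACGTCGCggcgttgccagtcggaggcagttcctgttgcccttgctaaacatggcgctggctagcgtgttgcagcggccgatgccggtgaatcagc
Psmb8: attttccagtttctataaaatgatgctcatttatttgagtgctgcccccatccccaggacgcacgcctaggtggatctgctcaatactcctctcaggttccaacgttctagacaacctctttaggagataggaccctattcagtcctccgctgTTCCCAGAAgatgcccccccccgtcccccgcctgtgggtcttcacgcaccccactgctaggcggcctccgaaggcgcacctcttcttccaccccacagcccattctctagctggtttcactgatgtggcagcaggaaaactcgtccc

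Psmb5 read 9.21 and 9.23 in Runx1f/f 2 and 3 and 9.24 and 9.28 in WT 2 and 3, against 9.13 and 9.11 in Runx1f/f 1 and 4 and 9.01 and 9.15 in WT 1 and 4. All arrays numbered 2 and 3 lay above the others, with a difference of 0.14, or 1.10-fold. The other catalytic subunits overlapped. Psmb6, which carries the caspase-like site, read 10.61 and 10.59 in Runx1f/f 2 and 3 and 10.76 and 10.68 in WT 2 and 3, against 10.62 and 10.64 in Runx1f/f 1 and 4 and 10.50 and 10.53 in WT 1 and 4. Arrays 2 and 3 lay above arrays 1 and 4 in WT and just below them in Runx1f/f. Psmb7, which carries the trypsin-like site, read 10.74 to 10.83 in arrays 2 and 3 and 10.71 to 10.79 in arrays 1 and 4.

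Of the inducible subunits, Psmb8 and Psmb9 read below the array medians on every array. Psmb8 read 3.67 and 3.73 in Runx1f/f 2 and 3 and 3.69 and 3.76 in WT 2 and 3, against 3.87 and 3.81 in Runx1f/f 1 and 4 and 3.87 and 3.78 in WT 1 and 4. All arrays numbered 2 and 3 lay below the others and the difference was -0.12. Psmb9 overlapped, at 4.15 to 4.33 in arrays 2 and 3 and 4.17 to 4.27 in arrays 1 and 4. Psmb10 was the inducible subunit above the array medians and spread most in the Runx1f/f arrays, with 5.65 and 5.93 in Runx1f/f 2 and 3 and 5.88 and 6.04 in WT 2 and 3, against 6.18 and 5.91 in Runx1f/f 1 and 4 and 5.87 and 5.88 in WT 1 and 4. The thymic subunit Psmb11 read 3.96 to 4.15. Probe sets differ in brightness, so these levels do not rank the genes by amount.

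**Figure D3:**
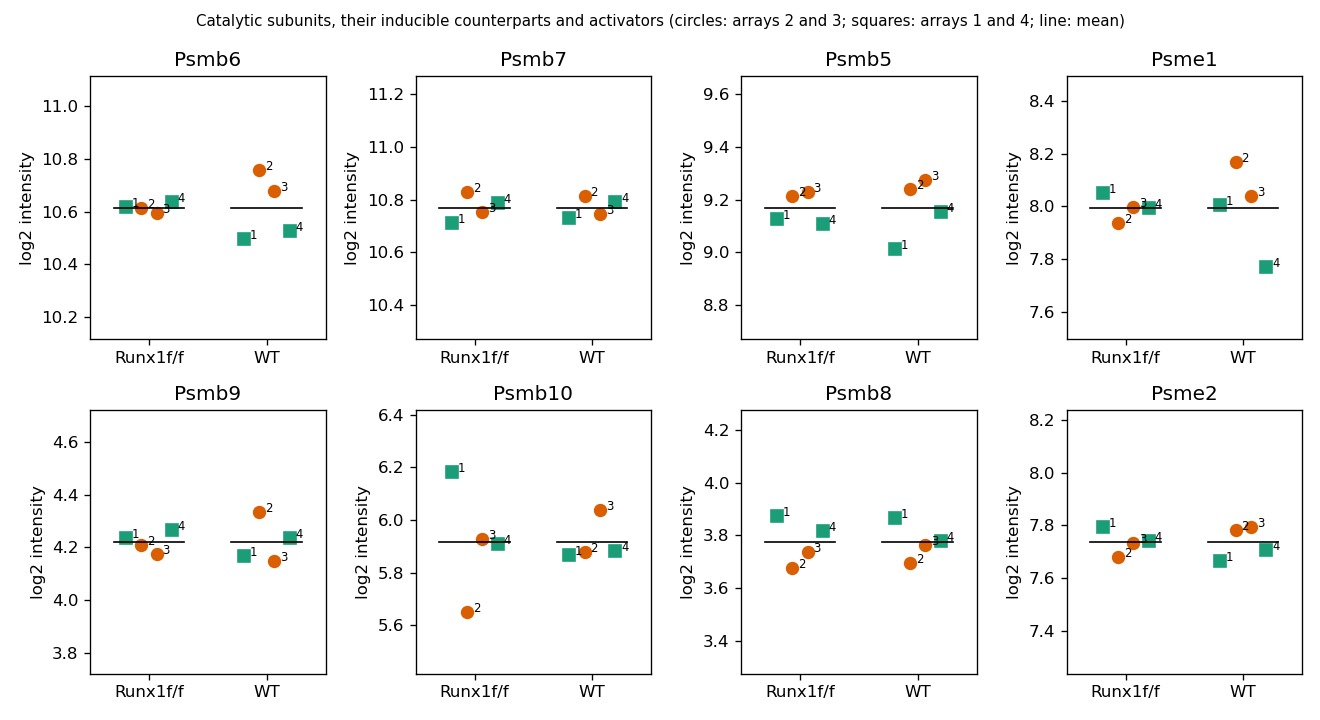
Log2 intensity on each array for the catalytic subunits Psmb6, Psmb7 and Psmb5 (top), each above its inducible counterpart Psmb9, Psmb10 or Psmb8, and for the activators Psme1 and Psme2, by label, with the array number beside each point and the mean as a line. Circles are arrays 2 and 3 and squares arrays 1 and 4. Each panel spans 1 log2 unit, and only Psmb5 and Psmb8 have circles and squares that do not overlap.

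The ATPases of the regulatory particle had the highest median difference among the classes with more than 3 genes, 0.12. All 6 were positive, beside 47.2% of all genes and 794 of the 1577 with a level of at least 9, but Psmc2 was negative after centring (-0.0094). Psmc3 had the largest difference of the 48 genes, 0.26, or 1.20-fold. It read 9.73 and 9.74 in Runx1f/f 2 and 3 and 9.80 and 9.95 in WT 2 and 3, against 9.61 and 9.61 in Runx1f/f 1 and 4 and 9.50 and 9.44 in WT 1 and 4. The arrays did not overlap, and the WT arrays stood farther apart (0.40) than the Runx1f/f pairs (0.12 and 0.13). Psmc1 read 9.79 and 9.79 in Runx1f/f 2 and 3 and 9.79 and 9.75 in WT 2 and 3, against 9.63 and 9.63 in Runx1f/f 1 and 4 and 9.68 and 9.62 in WT 1 and 4, a difference of 0.14. Its other probe set, dimmer by about 1 log2 unit, also did not overlap, with a difference of 0.11. In Psmc2, Psmc4, Psmc5 and Psmc6 the arrays overlapped, with differences of 0.015 to 0.12.

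The promoter of Psmc1, on chr12:100109952-100110251 (plus strand, GRCm38.p6, RefSeq), is shown as that of a gene whose arrays stood apart on both of its probe sets. Capitals mark the CCAAT box CCAAT and the Ets core TTCCGG.
Psmc1: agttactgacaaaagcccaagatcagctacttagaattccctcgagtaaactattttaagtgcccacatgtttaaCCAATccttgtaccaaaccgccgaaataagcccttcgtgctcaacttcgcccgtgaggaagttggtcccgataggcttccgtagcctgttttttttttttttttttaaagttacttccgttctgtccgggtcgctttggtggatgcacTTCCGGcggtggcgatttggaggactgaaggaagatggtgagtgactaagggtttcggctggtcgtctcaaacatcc

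The 11 other subunits of the regulatory particle had differences of -0.041 to 0.14. In 3 of them (27.3%) arrays 2 and 3 lay above without overlap, beside 9.87% of all genes and 18.2% of those with a level of at least 9. Psmd7, the partner of the deubiquitinase Psmd14, read 10.52 and 10.51 in Runx1f/f 2 and 3 and 10.40 and 10.50 in WT 2 and 3, against 10.30 and 10.31 in Runx1f/f 1 and 4 and 10.39 and 10.34 in WT 1 and 4. WT 2 lay only just above WT 1, and the arrays overlapped once they were centred on their medians. Psmd11, a scaffold subunit, read 9.59 to 9.70 in arrays 2 and 3 and 9.41 to 9.58 in arrays 1 and 4, and overlapped after centring as well. The ubiquitin receptor Psmd4 read 8.996 to 9.10 in arrays 2 and 3 and 8.95 to 8.97 in arrays 1 and 4, and did not overlap under any of the 3 scalings run. Psmd14 itself read 10.53 to 10.68 in arrays 2 and 3 and 10.56 to 10.67 in arrays 1 and 4. Psmd13, with the lowest difference of the class, read 9.05 to 9.12 in arrays 2 and 3 and 9.08 to 9.17 in arrays 1 and 4.

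Of the genes outside the particles themselves, all 4 activators had a positive difference, beside 47.2% of all genes. Their arrays overlapped throughout, and after centring Psme2 and Psme3 were negative (-0.0028 and -0.023). Psme4, an activator with a large single subunit, had a difference of 0.15, reading 9.43 to 9.63 in arrays 2 and 3 and 9.25 to 9.44 in arrays 1 and 4. Psme1, a subunit of the interferon-inducible activator, read 7.94 to 8.17 in arrays 2 and 3 and 7.77 to 8.05 in arrays 1 and 4. Its partner subunit Psme2 read 7.68 to 7.79 in arrays 2 and 3 and 7.67 to 7.79 in arrays 1 and 4. Psmf1, known as an inhibitor of the core particle in vitro, read 7.01 and 7.13 in Runx1f/f 2 and 3 and 7.15 and 7.06 in WT 2 and 3, against 7.30 and 7.18 in Runx1f/f 1 and 4 and 7.20 and 7.20 in WT 1 and 4. All arrays numbered 2 and 3 lay below, with a difference of -0.13, the lowest of the 48 genes.

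Assembly chaperones overlapped between the arrays in all 7 cases, whereas 9.87% of all genes lay above and 10.5% below without overlap. Among those of the regulatory particle, Psmd5, Psmd9 and Psmd10, the largest difference was 0.10 in Psmd5, which read 9.07 to 9.20 in arrays 2 and 3 and 8.98 to 9.13 in arrays 1 and 4. Of the 4 chaperones of the core, Psmg2 had a difference of 0.13, reading 8.35 to 8.47 in arrays 2 and 3 and 8.18 to 8.35 in arrays 1 and 4, and Psmg1 and Psmg4 had -0.046 and -0.070. Psmg4 was the least steady, with 4.81 and 5.15 in Runx1f/f 2 and 3 and 5.06 and 4.94 in WT 2 and 3, against 5.24 and 4.90 in Runx1f/f 1 and 4 and 5.08 and 5.02 in WT 1 and 4.

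**Figure D4:**
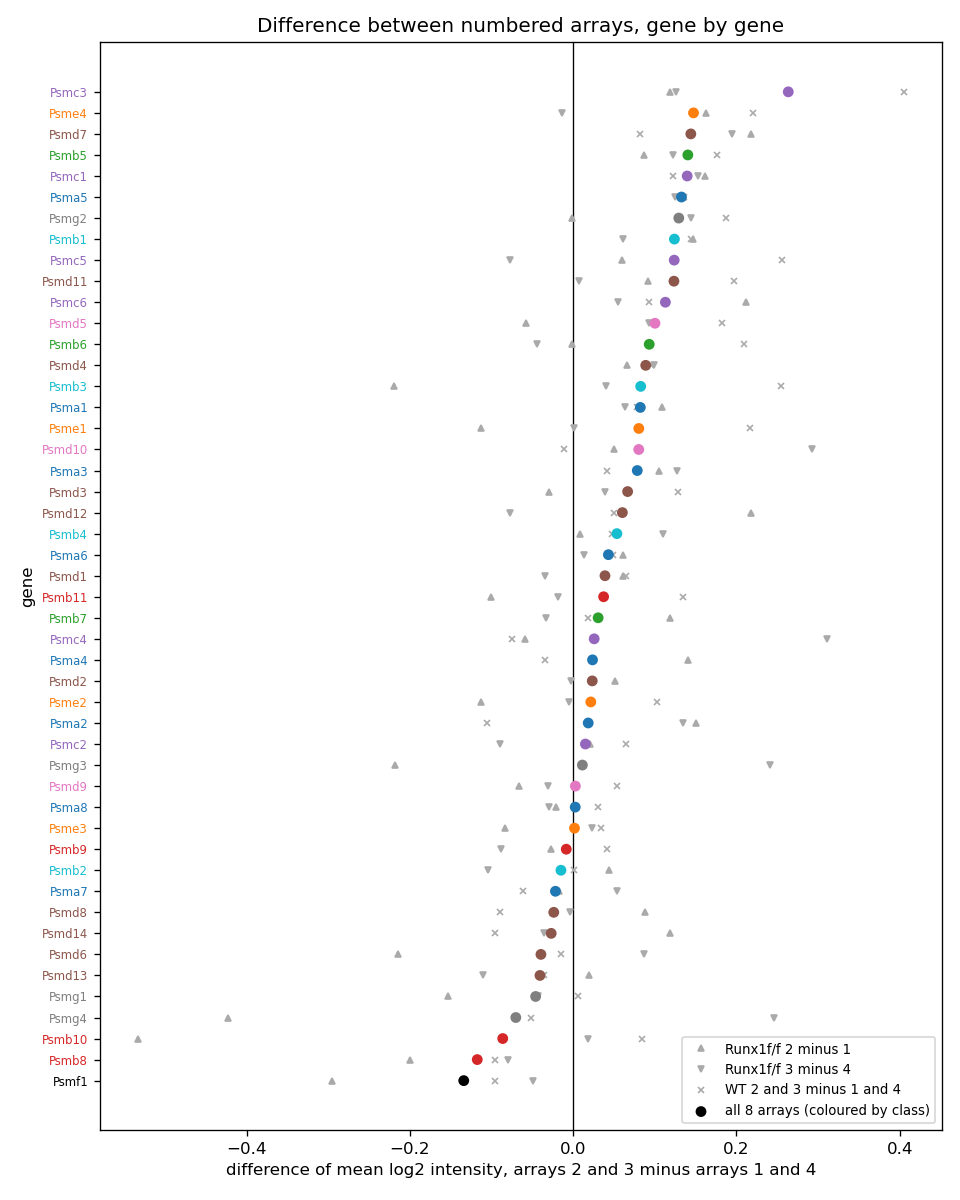
For each of the 48 genes (rows, ordered), the coloured point is the difference of mean log2 intensity, arrays 2 and 3 minus arrays 1 and 4, and the grey symbols are the 3 differences within sets of equal mean. The points run from -0.13 in Psmf1 to 0.26 in Psmc3, and 36 of 48 lie right of 0.

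Genes that act with the proteasome were read from lists in the same way. Of 14 measured proteasome-associated genes, 1 lay above and 1 below without overlap, close to the 9.87% and 10.5% of all genes. Zfand5, a proteasome activator linked to muscle atrophy, read 10.14 and 10.11 in Runx1f/f 2 and 3 and 10.18 and 10.11 in WT 2 and 3, against 9.95 and 9.98 in Runx1f/f 1 and 4 and 9.99 and 9.88 in WT 1 and 4. The shuttle factor Ubqln4 read 6.43 to 6.62 in arrays 2 and 3 and 6.66 to 6.86 in arrays 1 and 4. Nfe2l1, the factor that drives proteasome gene transcription when the proteasome is impaired, read 9.29 and 9.20 in Runx1f/f 2 and 3 and 9.17 and 9.26 in WT 2 and 3, against 9.07 and 9.16 in Runx1f/f 1 and 4 and 9.16 and 9.12 in WT 1 and 4, a difference of 0.10 without overlap. In its list of 7 measured genes, 2 lay above (Nfe2l1 and Mafg, a small Maf protein) and 0 below, beside 9.87% and 10.5% of all genes. The other 5 overlapped, with differences of 0.22 for Ngly1, whose enzyme processes Nfe2l1, and -0.26 for Mafk, a relative of Mafg. Uba6, a ubiquitin-activating enzyme and the 1 gene of 6 measured in the ubiquitin list, had a difference of -0.086 without overlap.

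Of 12 measured genes of antigen presentation and interferon response, 0 lay above and 2 (Tap1 and Tapbp) below, beside 9.87% and 10.5% of all genes, and their median difference was -0.068. Tap1, which carries proteasome products into the endoplasmic reticulum, read 5.45 and 5.64 in Runx1f/f 2 and 3 and 5.40 and 5.46 in WT 2 and 3, against 5.90 and 5.71 in Runx1f/f 1 and 4 and 5.89 and 5.95 in WT 1 and 4, a difference of -0.38. Its partner Tap2 overlapped, with 6.10 to 6.47 in arrays 2 and 3 and 6.44 to 6.84 in arrays 1 and 4.

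Promoters of 40 of the 48 genes were found in the RefSeq table and searched for 6 motifs on both strands, chosen with the values known. The Ets core TTCCGG occurred in 20 of the 40, or 50%, beside 16.7% of the 27025 genes with a promoter there. For this and the other motifs, the 27025 genes were not limited to those measured here or matched in level to the proteasome genes. Whether a gap is particular to proteasome genes was not tested. The interferon-stimulated response element core GAAANNGAA occurred in 7 of 40, or 17.5%, beside 9.76%. These were Psmb3, Psmb4, Psmc2, Psmd4, Psmd9, Psme1 and Psmg4, and the inducible subunits Psmb8, Psmb9 and Psmb10 had no match. A form of this core 1 base longer was searched first and replaced after its counts were seen, for a reason unrelated to them. It matched fewer promoters, with a wider gap between the proteasome genes and all genes. The antioxidant response element core TGACNNNGC, which Nfe2l1 and its relatives bind, occurred in 6 of 40, or 15.0%, beside 14.0%, and these were Psmb5, Psmb6, Psmc6, Psmd9, Psmd12 and Psme4. The Runx core TGTGGT occurred in 6 of 40, or 15.0%, beside 18.9%, the CCAAT box CCAAT in 14 of 40, or 35.0%, beside 41.1%, and the gamma-activated site core TTCNNNGAA in 3 of 40, or 7.50%, beside 9.55%. The motifs can share bases, since TTCNNNGAA may hold TTCCGG. These are matches of letters in a window, not binding sites.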

How the data were processed

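RNA of 8 myoblast samples was measured on single-colour arrays. The deposited values are log2 intensities of probe sets. Per the submitters' processing notes, which give no versions, RMA and Partek were used; RMA corrects background, quantile-normalizes arrays together and summarizes probes. No label records the step that made the means of the 3 column sets equal. Columns were assigned by the accession in their headers, although the order of the source numbers in the labels would assign 4 of them to the other label. Of the 35399 rows, 21789 carried 1 gene symbol, 1621 several and 11989 none in the platform annotation. The 50 matching genes had 56 rows, and 5 genes had more than 1. A row shared by Psme2b and Psme2 was not used. All 50 gene identifiers matched RefSeq (GRCm38.p6) with the same symbol.

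Runx1f/f was compared with WT by limma 3.58.1 in R 4.3.3 (two-sided, Benjamini-Hochberg over 19938 genes). The fit was also run on simulated independent arrays, which lack the equal means and mirror images of these values, so that run does not bear on them. Deviations from the label means correlated by 0.24, 0.28, 0.42 and 0.38 for numbers 1 to 4, so an alternative paired the arrays by number, although the labels give no pairing and Runx1f/f 1 and 2, and 3 and 4, are mirror images. Genes described array by array were Runx1, the catalytic and inducible subunits, Psme1, Psme2, Psma8 and Psmb11, the largest difference of each class, and the 6 highest and 6 lowest differences. Some further members, such as Psmd2, Psmd4 and Psmb3, and the level of 9 were chosen after values were seen. The members and lists were chosen with earlier results of these data known. Alternatives were blocks, scalings, a minimum level of 5, other probe sets, 1 label alone and each array left out. No detection values or scanner files were used here, and the number of arrays limits the precision. P-values rest only on the spread between these arrays, and the mirror images make the Runx1f/f values dependent. In the main fit the equal means fixed all limma p-values near 1 (smallest 0.99889), so they measure no effect of the label.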

Additional observations from a re-analysis of the deposited data

Results flagged for a closer look

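Groups of 4 arrays of 1 label were checked for an array far from the others, over the 48 genes and the medians of their classes, 116 groups in all, and 1 was marked. In 48 of these, the single genes in Runx1f/f arrays, the values are mirror images and cannot be marked. Among the other 68, about 5% would be marked by chance if the values were independent. They are not: class medians are made from the same genes. The inhibitor class holds only Psmf1, so its median repeats that gene and cannot be marked in Runx1f/f arrays either. Psmb10 was marked, with 6.04 in WT 3 while the other WT arrays lay between 5.87 and 5.88.

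For 5 of the 48 genes, beside 8.31% of all genes, both arrays 2 and 3 lay on one side of arrays 1 and 4 in the Runx1f/f arrays and on the opposite side in the WT arrays, a share close to that of all genes. The difference between the labels, as the columns are headed, was not tested. The difference, arrays 2 and 3 minus arrays 1 and 4, was 0.14 in Runx1f/f and -0.11 in WT arrays for the alpha subunit Psma2. It was -0.060 in Runx1f/f and 0.13 in WT arrays for Psmb11, -0.023 and 0.21 for Psmb6, -0.049 and 0.054 for Psmd9, and -0.059 and 0.10 for Psme2.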

How the results depend on the processing

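The counts of 0 proteasome genes and 0 of all genes higher or lower in Runx1f/f arrays held under each alternative run, which the equal means fix wherever all columns are kept unscaled. A replicate block left all these counts at 0 and gave a Runx1 difference of -1.25e-05, and it altered no other call. With 1 array left out, 0 to 27 of all genes and 0 of the 48 had an unadjusted p under 0.05 in limma. For Runx1 these fits gave differences between -0.17 (WT 1 left out) and 0.20 (WT 3 left out), positive without Runx1f/f 1 (0.10), Runx1f/f 4 (0.076) and WT 2 (0.11), because leaving out an array breaks the equal means. The 9 proteasome genes above in arrays 2 and 3 became 7 after centring, beside 7.74% of all genes, and 8 after repeated quantile normalization, beside 9.30%. The count below stayed at 2 under both, beside 14.2% and 11.8% of all genes. Under all 3 scalings, 7 of the 9 stood apart. The 2 below became 1 with a minimum level of 5, beside 16.9% of all genes of that level, since Psmb8 is then left out. In 1 label alone, 2 arrays stand against 2. In Runx1f/f arrays 16 lay above and 9 below, beside 25% and 33.3% of all genes. In WT arrays 23 lay above and 6 below, beside 24.5% and 23.3%. With 1 array left out the count above ran from 9 to 12 and the count below from 2 to 3. In each of these runs the shares of all genes exceeded the 9.87% and 10.5% found with all arrays. Without Runx1f/f 3, which gave the 12, the share above was 11.3%. Without WT 1, which gave the 3, the share below was 14.2%. The median difference over the 48 genes ran from 0.034 to 0.045. The median kept its sign in every alternative run and was lowest, at 0.014, after centring. Taking the dimmest probe set of each gene, an alternative added after seeing the data, gave 8 above and 2 below, beside 9.65% and 10.4% of all genes.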
